A study of Mus musculus with 75 samples.

Results

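A set of 10 genes that mark the blood capillaries and veins of the lung was followed in BLEO-IPF mice, in which a single intratracheal instillation of bleomycin (BLEO) leads to lung fibrosis. The genes were chosen by symbol for the vessel type they mark. Car4, Ednrb and Apln mark aerocytes, Gpihbp1, Aplnr and Cd93 mark general capillaries, and Vwf, Plvap, Ackr1 and Selp mark venous vessels. They are 10 of the 55536 genes in the count table.

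The inferior right lung lobe of 75 male mice (C57BL/6JRj strain) gave 1 RNA library per mouse. Controls (CTRL) numbered 10, and BLEO-IPF mice numbered 10 on day 7 after BLEO administration, 12 at each of days 14, 21, 28 and 35, and 7 at day 42. The labels give saline as the treatment of the controls, whereas the treatment description calls them untreated. BLEO-IPF mice were 12 to 14 weeks of age at BLEO administration. Those with a body weight loss of 5 to 17% on day 6 were randomized, so mice with milder or more severe loss are not represented. Neither age nor day of sampling is given for the controls in the sources used here. The lungs had been rinsed with saline for lavage before the lobe was frozen. The sources used here name no transgene, and each day comprised different mice.

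The pulmonary capillary bed holds a pair of endothelial cell types. Aerocytes are large, thin cells that face the alveolar epithelium and serve gas exchange, whereas general capillary cells regulate vascular tone and act as progenitors that can restore the capillaries after injury. Venules and veins collect the blood, and their endothelium is where leukocytes leave the circulation. Apelin from aerocytes signals to its receptor on general capillary cells, so the ligand and the receptor mark different cells of the same bed.

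Total counts ranged from 9240291 to 14665247 per mouse (median 10677163), and in every pair of mice of a group the counts differed by more than sampling noise (lowest chi-square per degree of freedom 4.11 over 375 pairs). The share of mitochondrial transcripts did not exceed 2.87%. The labels give no sequencing batch, so batches were not compared. The labelled tissue was checked against its markers. In CTRL mice, the summed level of 6 markers of alveolar type 2 (AT2) cells ranged from 18846 to 22889 counts per 1000000 (CPM), and that of 10 pan-endothelial genes from 3793 to 5275 CPM. CPM values were scaled with TMM factors, which correct total counts for differences in composition between libraries. A gene is called where the adjusted p of edgeR's quasi-likelihood test is under 0.05, with Benjamini-Hochberg adjustment over the 16221 genes tested.

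All 10 genes passed the filter on low counts. Ackr1 passed through its counts in BLEO-IPF mice, since CTRL mice had 0 to 4 counts each. Per kilobase of exon, Plvap was the most abundant in CTRL mice (282 CPM per kb, the mean of 10 mice), followed by Cd93 (88.9), Car4 (83.3), Gpihbp1 (43.4), Vwf (43.1), Ednrb (34.9), Aplnr (23.2) and Apln (19) in the same unit. Selp (1.35 CPM per kb) and Ackr1 (0.143 CPM per kb) were far less abundant.

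The bases upstream of the transcription start are shown for 3 genes with different courses, namely Selp, which rose early, and Car4 and Apln, which fell. RefSeq gave a promoter for 5 of the 10 genes (Selp, Ackr1, Car4, Ednrb and Apln), and the 250 bases before the start were searched on both strands for AGGAAG, the core bound by ETS factors such as Erg. They were likewise searched for the GATA factor motif, spelled AGATAA, and the SOX factor motif, spelled ACAATG. Sequences are from RefSeq on GRCm38.p6, 5′ to 3′ on the strand of the gene, and capitals mark a match to AGGAAG or its reverse complement.
Selp, chr1:164115014-164115263, plus strand: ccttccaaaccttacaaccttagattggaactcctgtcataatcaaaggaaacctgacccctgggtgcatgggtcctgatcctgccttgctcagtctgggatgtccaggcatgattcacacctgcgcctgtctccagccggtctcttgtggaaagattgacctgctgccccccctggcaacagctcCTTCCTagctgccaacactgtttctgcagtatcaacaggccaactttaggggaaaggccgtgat
Car4, chr11:84957504-84957753, plus strand: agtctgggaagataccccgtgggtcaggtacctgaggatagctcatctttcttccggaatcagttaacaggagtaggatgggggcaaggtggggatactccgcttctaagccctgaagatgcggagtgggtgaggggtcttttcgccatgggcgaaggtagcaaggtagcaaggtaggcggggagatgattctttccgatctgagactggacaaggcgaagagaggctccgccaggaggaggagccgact
Apln, chrX:48034854-48035103, minus strand: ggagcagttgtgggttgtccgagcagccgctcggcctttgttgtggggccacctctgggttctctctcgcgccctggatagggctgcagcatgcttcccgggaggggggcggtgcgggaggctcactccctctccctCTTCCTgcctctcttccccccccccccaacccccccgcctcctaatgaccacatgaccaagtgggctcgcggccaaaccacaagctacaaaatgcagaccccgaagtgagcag
The match read CTTCCT in Selp, starting 64 bases before the transcription start, and in Apln, starting 113 bases before it. The Car4 window held none of the 3 motifs in these letters. AGGAAG was in 3 of the 5 windows (Selp, Ackr1 and Apln) and in 29.5% of all 32851 promoter windows of that length. AGATAA and ACAATG were in 0 of the 5 windows, compared with 9.99% and 10.7% of all windows.

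Compared to CTRL, Ednrb, Apln, Car4, Aplnr, Cd93 and the venous marker Plvap were called lower on 6, 5, 4, 3, 1 and 5 of the 6 days. The venous markers Ackr1, Selp and Vwf were called higher on 6, 3 and 2 days, and Gpihbp1 was not called. Most calls fell on days 14 and 21, when Cd93 was not called. On day 7, 6 of the 10 genes were called (2 higher, 4 lower), when 45.8% of all genes tested were called (24.8% higher and 21% lower). On day 14, 8 were called (3 higher, 5 lower) against 62.4% of all genes (32.4% higher and 29.9% lower). On day 21, 8 were called again (3 higher, 5 lower) against 54.2% (28.3% higher and 25.8% lower). On day 28, 5 were called (1 higher, 4 lower) against 43.3% (24.1% higher and 19.2% lower). On day 35, 5 were called (1 higher, 4 lower) against 29.9% (16.9% higher and 13.1% lower). On day 42, 3 were called (1 higher, 2 lower), a share near the 24.7% of all genes (13.7% higher and 11% lower). Without CTRL replicate 2, which had the highest Plvap level of its group, the count on day 28 was 3. Since the tissue is bulk lung, fewer cells of a type and less RNA per cell cannot be told apart.

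Over the 6 days, 24 of 60 tests (10 genes on 6 days) were called lower and 11 higher. Among all genes, 11% to 29.9% were called lower and 13.7% to 32.4% higher on single days. The share of higher calls lay within its range and that of lower calls above its range. Ednrb and Ackr1 were called on all 6 days, in opposite directions, and Gpihbp1 on none. The share of all genes called on all 6 days was not counted. The paper describes a fairly large part of its changed genes as regulated throughout. With replicates 1 to 7 of each group, Ednrb lost its calls of days 7 and 42 (adjusted p = 0.13 and 0.064), and Ackr1 could not be tested on days 7 and 42 in fits of only 2 groups. All 6 comparisons share the same CTRL mice.

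**Figure D1:**
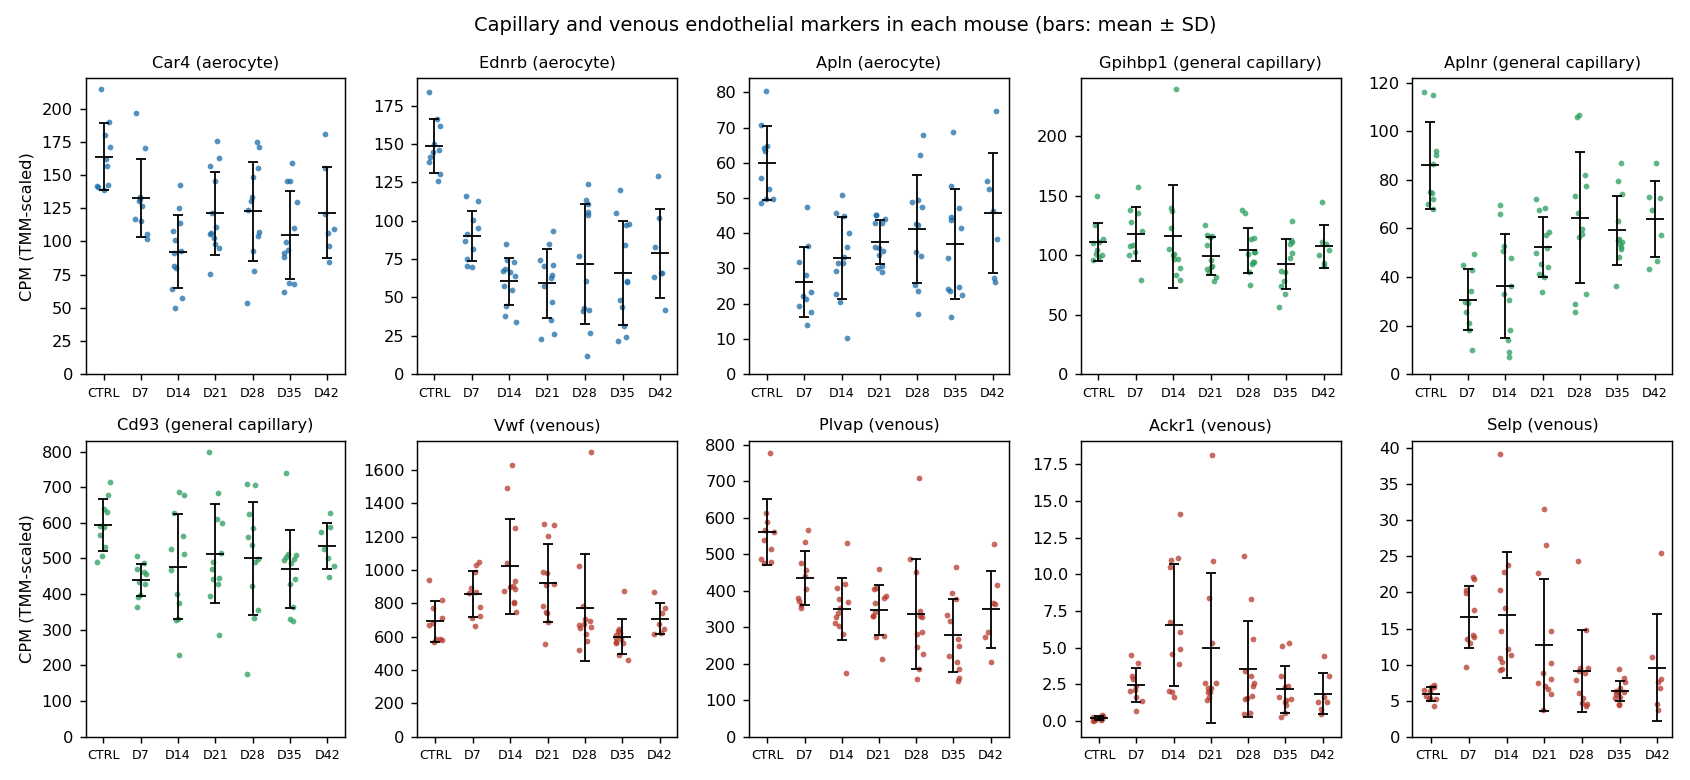
Level of each of the 10 markers (TMM-scaled CPM, y axis, linear) in every mouse, by group (x axis, CTRL and BLEO-IPF days 7 to 42, D7 to D42). Points are mice and bars the mean ± SD. The Ednrb points of day 7 to day 35 lie below all CTRL mice, whereas Ackr1 is near 0 in CTRL mice and reaches 18.2 CPM on day 21.

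All 3 aerocyte markers fell on days 14 to 35. Ednrb (ENSMUSG00000022122, chr14:103814625-103844402, minus strand) encodes the endothelin B receptor, which clears endothelin-1 from the circulation and relays its signal in endothelium. Ednrb ranged from 126 to 184 (median 145) CPM in CTRL mice and from 70.1 to 116 (median 88.9) CPM on day 7. It ranged from 33.8 to 84.6 (median 65.3) CPM on day 14, from 22.8 to 93.2 (median 63.8) CPM on day 21 and from 11.5 to 124 (median 68.8) CPM on day 28. All BLEO-IPF mice lay below all CTRL mice on these days. The range was 21.3 to 120.1 (median 60.5) CPM on day 35 and 41.8 to 129 (median 66) CPM on day 42, when 6 of 7 mice lay below the lowest CTRL mouse. Ednrb was 1.66-fold lower on day 7 (log2FC -0.73 ± 0.26, SE, adjusted p = 0.017), 2.46-fold lower on day 14 (log2FC -1.30 ± 0.25, SE, adjusted p = 7.2e-06) and 2.51-fold lower on day 21 (log2FC -1.33 ± 0.25, SE, adjusted p = 7.0e-06). It was 2.08-fold lower on day 28, 2.25-fold lower on day 35 and 1.89-fold lower on day 42 (adjusted p = 4.0e-04, 1.6e-04 and 0.016). The coefficient of variation between mice was 11.8% in CTRL mice and 54.3% on day 28, a difference that was not tested.

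Apln (ENSMUSG00000037010, chrX:48025146-48034853, minus strand) encodes apelin, the secreted ligand of the apelin receptor. Apln ranged from 48.7 to 80.5 (median 59.5) CPM in CTRL mice, from 14 to 47.5 (median 22.8) CPM on day 7 and from 10.3 to 50.7 (median 32.3) CPM on day 14. Its lowest group mean was that of day 7, when no mouse reached the CTRL range. On day 42 the range was 26.1 to 74.6 (median 46.4) CPM, and 3 of 7 mice lay within the CTRL range. Apln was 2.29-fold lower on day 7 (log2FC -1.20 ± 0.22, SE, adjusted p = 6.9e-06) and 1.81-fold lower on day 14 (log2FC -0.86 ± 0.20, SE, adjusted p = 2.2e-04). On days 21, 28 and 35 the log2FC was -0.68, -0.54 and -0.70 (adjusted p = 0.0038, 0.026 and 0.0059), and on day 42 it was -0.39 and did not pass the test (adjusted p = 0.23, 95% interval -0.85 to 0.07).

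Car4 (ENSMUSG00000000805, chr11:84957786-84966044, plus strand) encodes carbonic anhydrase 4, an enzyme on the luminal surface of lung capillaries that interconverts carbon dioxide and bicarbonate. Car4 ranged from 139 to 214 (median 159.6) CPM in CTRL mice, from 102 to 197 (median 128) CPM on day 7 and from 49.8 to 142 (median 92.3) CPM on day 14. On day 14, 11 of 12 mice lay below the lowest CTRL mouse. Car4 was 1.77-fold lower on day 14 (log2FC -0.83 ± 0.16, SE, adjusted p = 1.4e-05), with log2FC of -0.43, -0.42 and -0.64 on days 21, 28 and 35 (adjusted p = 0.021, 0.033 and 0.0017). Day 7 (-0.30, adjusted p = 0.14) and day 42 (-0.43, adjusted p = 0.09) did not pass. The calls of Car4 and Apln on day 28 were lost without CTRL replicate 2 (adjusted p = 0.066 and 0.052), and Car4 on day 42 was called without day 42 replicate 4 (adjusted p = 0.033).

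**Figure D2:**
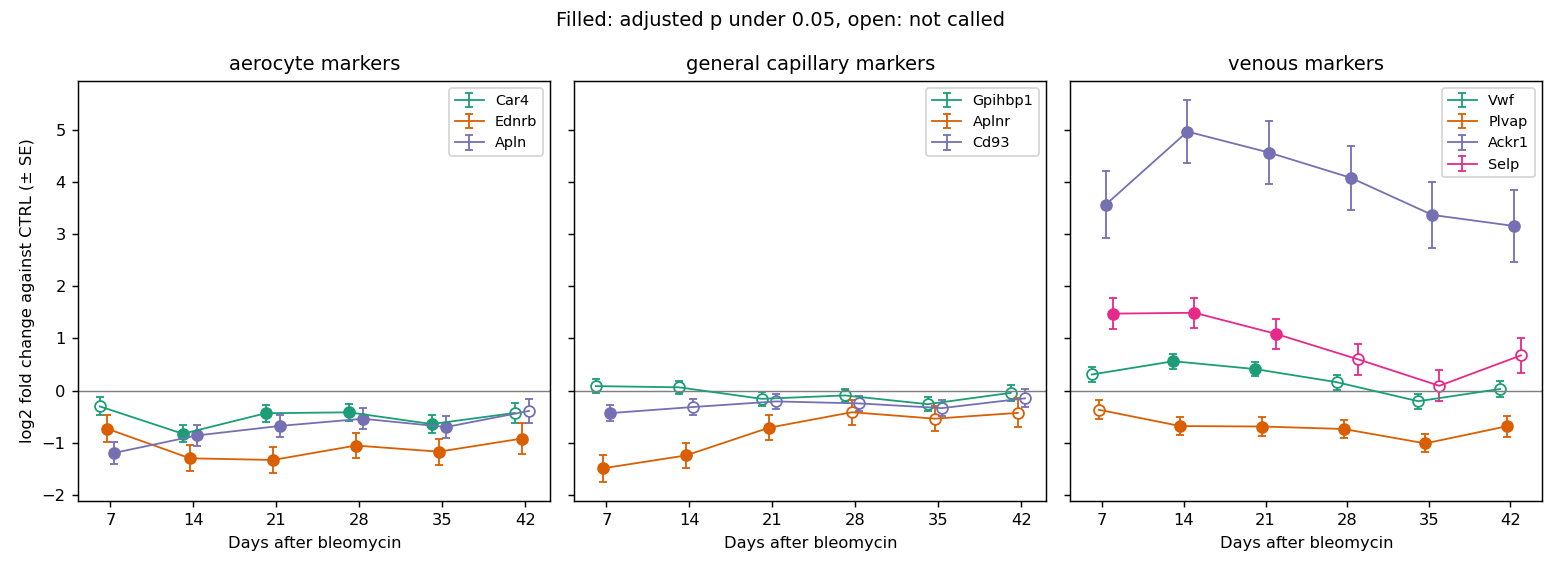
Fitted log2 fold change against CTRL (y axis, error bars ± SE) by day after BLEO administration (x axis, days) for aerocyte, general capillary and venous markers. Filled points passed the test and open points did not. Ackr1 peaks at 4.96 on day 14, and the lowest value is -1.49 for Aplnr on day 7.

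Of the general capillary markers, Aplnr fell early, Cd93 fell on day 7 and Gpihbp1 was not called on any day. Aplnr (ENSMUSG00000044338, chr2:85136225-85139923, plus strand) encodes the apelin receptor. Aplnr ranged from 67.8 to 116 (median 80.8) CPM in CTRL mice, from 10.0 to 49.4 (median 29.7) CPM on day 7 and from 6.86 to 69.7 (median 34.6) CPM on day 14. No mouse of day 7 and 1 of 12 mice of day 14 reached the CTRL range. On day 28 the range was 25.8 to 107 (median 63.1) CPM and on day 42 43.2 to 86.9 (median 67.6) CPM, and both overlapped CTRL. Aplnr was 2.81-fold lower on day 7 (log2FC -1.49 ± 0.26, SE, adjusted p = 2.4e-06), 2.37-fold lower on day 14 (log2FC -1.24 ± 0.24, SE, adjusted p = 8.8e-06) and 1.64-fold lower on day 21 (log2FC -0.71 ± 0.24, SE, adjusted p = 0.0092). The log2FC of -0.41, -0.54 and -0.43 on days 28, 35 and 42 did not pass (adjusted p = 0.15, 0.078 and 0.26).

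Cd93 (ENSMUSG00000027435, chr2:148436640-148443563, minus strand), a transmembrane glycoprotein of endothelium with a role in cell adhesion and vessel growth, ranged from 490.0 to 713 (median 589.7) CPM in CTRL mice and from 363 to 508 (median 445) CPM on day 7. On day 7, 9 of 10 mice lay below the lowest CTRL mouse (log2FC -0.43 ± 0.16, SE, adjusted p = 0.021). On days 14 to 42 the log2FC lay between -0.34 and -0.15 and did not pass. Gpihbp1 (ENSMUSG00000022579, chr15:75596628-75599481, plus strand) encodes the protein that carries lipoprotein lipase to the capillary lumen. Gpihbp1 ranged from 95.7 to 149.6 (median 107) CPM in CTRL mice, from 79.2 to 157 (median 114) CPM on day 7 and from 79.5 to 239 (median 101) CPM on day 14, so the groups overlapped. Its log2FC lay between -0.26 on day 35 and 0.09 on day 7, and was called on 0 days by edgeR and on 0 by DESeq2, with an unadjusted p under 0.05 on 1 day. The 95% interval on day 14 was -0.19 to 0.31, compared with -1.71 to -0.77 for Aplnr.

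Of the venous markers, Ackr1 showed the largest change. Ackr1 (ENSMUSG00000037872, chr1:173331886-173333750, minus strand) encodes an atypical chemokine receptor of venular endothelium that binds chemokines without G protein signaling. CTRL mice had 0 to 4 counts, 22 in all over 10 mice (95% Poisson interval 13.8 to 33.3, which covers counting error only). Counts were 7 to 54 on day 7, 20 to 142 on day 14 and 14 to 194 on day 21. They were 6 to 113 on day 28, 3 to 51 on day 35 and 6 to 45 on day 42. Except for 1 mouse of day 35, all 65 BLEO-IPF mice lay above all CTRL mice. Ackr1 was 0.201 ± 0.134 CPM (SD, n = 10) in CTRL mice and 6.55 ± 4.18 CPM (SD, n = 12) on day 14. The fitted increase was 11.8-fold on day 7 (log2FC 3.56 ± 0.64, SE, adjusted p = 4.6e-06), 31.2-fold on day 14 (log2FC 4.96 ± 0.60, SE, adjusted p = 1.1e-10) and 8.90-fold on day 42 (log2FC 3.15 ± 0.69, SE, adjusted p = 4.0e-04). With so few CTRL counts the 95% interval of the log2FC was wide, 3.78 to 6.14 on day 14. Ackr1 lies on the same strand as Cadm3 and overlaps it, so reads could be split between them. Cadm3 had 59.1% as many counts as Ackr1 over all mice. It was not called on any day, with log2FC from 0.25 on day 21 to 0.60 on day 28.

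Selp (ENSMUSG00000026580, chr1:164115264-164150026, plus strand) encodes P-selectin, which is stored in endothelium and platelets and lets leukocytes roll on the vessel wall. Selp ranged from 4.30 to 7.16 (median 6.01) CPM in CTRL mice, from 9.70 to 22.2 (median 15.8) CPM on day 7 and from 9.32 to 39.1 (median 13.4) CPM on day 14. Mice of days 7 and 14 all lay above the CTRL mice. On day 21 the range was 3.75 to 31.5 (median 8.42) CPM and on day 35 4.43 to 9.37 (median 6.18) CPM, with 8 of 12 and 3 of 12 mice above the CTRL range. Selp was 2.78-fold higher on day 7 (log2FC 1.47 ± 0.30, SE, adjusted p = 4.5e-05), 2.81-fold higher on day 14 (log2FC 1.49 ± 0.29, SE, adjusted p = 1.0e-05) and 2.12-fold higher on day 21 (log2FC 1.09 ± 0.29, SE, adjusted p = 0.0012). It was not called on days 28, 35 and 42 (log2FC 0.60, 0.09 and 0.67, adjusted p = 0.089, 0.85 and 0.12).

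Vwf (ENSMUSG00000001930, chr6:125546774-125686679, plus strand) encodes von Willebrand factor, which tethers platelets and is stored with P-selectin in the Weibel-Palade bodies of endothelium. Vwf ranged from 569 to 943 (median 677) CPM in CTRL mice, from 665 to 1050.2 (median 866) CPM on day 7 and from 751 to 1631 (median 904) CPM on day 14, and 4 of 12 mice of day 14 lay above the CTRL range. Vwf was 1.48-fold higher on day 14 (log2FC 0.56 ± 0.14, SE, adjusted p = 4.5e-04) and 1.33-fold higher on day 21 (log2FC 0.41 ± 0.14, SE, adjusted p = 0.011). The log2FC was 0.31 on day 7 (adjusted p = 0.077, and 0.042 without CTRL replicate 2), and 0.16, -0.20 and 0.03 on days 28, 35 and 42, and did not pass.

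Plvap (ENSMUSG00000034845, chr8:71497765-71511752, minus strand) encodes the protein of the diaphragms that span endothelial caveolae and fenestrae, and lung capillaries carry it too. Unlike the other venous markers, Plvap fell. Plvap ranged from 477 to 779 (median 549.7) CPM in CTRL mice, from 176 to 530.3 (median 347) CPM on day 14 and from 153 to 465 (median 259) CPM on day 35. All mice of days 21 and 35 lay below all CTRL mice. Plvap was 1.60-fold lower on day 14 (log2FC -0.68 ± 0.17, SE, adjusted p = 5.1e-04), 2.02-fold lower on day 35 (log2FC -1.01 ± 0.17, SE, adjusted p = 4.6e-06) and 1.61-fold lower on day 42 (log2FC -0.68 ± 0.20, SE, adjusted p = 0.0098). Day 7 (-0.37) did not pass (adjusted p = 0.089). Gtpbp3 overlaps Plvap on the other strand, with 5.18% of its counts, and whether the counting used strand is not given in the sources used here.

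Read by complete separation from CTRL, 2 genes (Ackr1 and Selp) had every day 7 mouse above every CTRL mouse, when 7.39% of all genes did. On day 7, 3 genes (Ednrb, Apln and Aplnr) had every mouse below CTRL, when 3.80% of all genes did. On day 14, Ackr1 and Selp were fully above (9.46% of all genes) and Ednrb fully below (6.15%). On day 21, Ackr1 was fully above (6.84%) and Ednrb, Apln and Plvap fully below (4.85%). On day 28, 1 gene lay on each side, Ackr1 above (2.10%) and Ednrb below (1.34%). On day 35, Ednrb and Plvap lay fully below (1.34%) and 0 of the 10 fully above (2.43%). On day 42, Ackr1 lay fully above (4.22%) and 0 of the 10 fully below (3.37%). Ackr1 passed the filter on low counts through its BLEO-IPF mice, whereas CTRL mice had 0 to 4 counts each. Its place above CTRL is therefore favored by that filter and is no independent support.

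Compared between BLEO-IPF days, 4 of the 10 genes differed between day 42 and day 14, when 34% of all genes did. Ackr1 was 3.50-fold lower on day 42 (log2FC -1.81 ± 0.51, SE, adjusted p = 0.0045), Selp 1.76-fold lower (log2FC -0.82 ± 0.32, SE, adjusted p = 0.038) and Vwf 1.45-fold lower (log2FC -0.53 ± 0.16, SE, adjusted p = 0.0067). Aplnr was 1.76-fold higher (log2FC 0.82 ± 0.26, SE, adjusted p = 0.012). The call of Selp was lost without day 42 replicate 4 (adjusted p = 0.104), and the calls of Selp and Aplnr when only these 2 groups were fitted (adjusted p = 0.088 and 0.078). Ednrb (log2FC 0.38, 95% interval -0.16 to 0.92) and Plvap (-0.003, -0.38 to 0.37) did not pass.

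From day 7 to day 14, 2 genes differed, when 17% of all genes did. Ackr1 rose a further 2.64-fold (log2FC 1.40 ± 0.44, SE, adjusted p = 0.018) and Car4 was 1.44-fold lower (log2FC -0.52 ± 0.16, SE, adjusted p = 0.019). In edgeR none of the 10 genes was called between days 21 and 14 (1.03% of all genes), 28 and 21 (0.727%) or 35 and 28 (1.27%), and DESeq2 called 0 genes of the 10 in each. At an unadjusted p under 0.05, 2 of the 10 genes differed between days 21 and 14, 0 between days 28 and 21 and 1 between days 35 and 28. Between days 42 and 35, edgeR called 0 of all genes tested (957 at an unadjusted p under 0.05, 0 of them among the 10) and DESeq2 also 0.

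When the 7 groups were ordered by level, only Ednrb and Ackr1 had neighbouring groups that differed, in 1 of 6 neighbouring pairs each. For Ednrb the groups ran from CTRL over days 7, 42, 28, 35 and 14 to day 21, and CTRL differed from day 7. For Ackr1 they ran from day 14 over days 21, 28, 7, 35 and 42 to CTRL, and day 42 differed from CTRL. For the other 8 genes no pair of neighbours was told apart, although groups farther apart in the order differed for some of them, such as days 7 and 14 for Car4 and days 14 and 42 for Aplnr, Vwf and Selp.

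Genes shared by all endothelium fell as well. The summed level of 10 pan-endothelial genes (Pecam1, Cdh5, Tie1, Erg, Egfl7, Esam, Emcn, Cldn5, Robo4 and Eng) was 4283 ± 423 CPM (SD, n = 10) in CTRL mice, 3243 ± 334 CPM (n = 10) on day 7 and 3121 ± 588 CPM (n = 12) on day 14. It was 3241 ± 673 CPM (n = 12) on day 35 and 3758 ± 575 CPM (n = 7) on day 42. Of the 10 genes, 8, 9, 6, 6, 8 and 4 fell on the 6 days in turn, and the others were not called. Among all genes tested, 21%, 29.9%, 25.8%, 19.2%, 13.1% and 11% were called lower on these days. The median log2FC of the list was -0.47 at day 14 and -0.18 at day 42, when the median of all genes was 0.008 and 0.005. Examples on day 14 were Tie1, an endothelial receptor tyrosine kinase (log2FC -0.64 ± 0.10), and Eng, a co-receptor for TGFβ family ligands (log2FC -0.62 ± 0.14).

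The markers were therefore also read relative to these counts, with each library scaled to its pan-endothelial sum. This scaling moved the median of all genes up by 0.40, 0.50, 0.34, 0.36, 0.44 and 0.21 (log2) on the 6 days, against which these values are to be read. On day 14, 72.4% of all genes were called on this scale (65.5% higher, 6.85% lower) and 8 of the 10 markers were, 4 in each direction. Ackr1 (log2FC 5.55 ± 0.70, adjusted p = 2.9e-10), Selp (log2FC 2.03 ± 0.33, adjusted p = 2.8e-07) and Vwf (log2FC 1.09 ± 0.18, adjusted p = 5.1e-07) were higher by more than that shift. Ednrb (log2FC -0.86 ± 0.19, adjusted p = 9.1e-05), Aplnr (log2FC -0.85 ± 0.21, adjusted p = 2.0e-04), Apln (log2FC -0.40 ± 0.15, adjusted p = 0.016) and Car4 (log2FC -0.39 ± 0.12, adjusted p = 0.0022) were lower. Gpihbp1 (log2FC 0.56 ± 0.13, adjusted p = 8.0e-05) was called higher by about the shift of all genes. Cd93 (log2FC 0.12 ± 0.11, adjusted p = 0.29) and Plvap (log2FC -0.22 ± 0.11, adjusted p = 0.06) did not pass.

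On day 7, 6 of the 10 were called on this scale, against 59% of all genes (56.7% higher, 2.26% lower). Aplnr (log2FC -1.10 ± 0.22, adjusted p = 2.4e-05) and Apln (log2FC -0.81 ± 0.16, adjusted p = 2.8e-05) were lower, and Ackr1, Selp, Vwf and Gpihbp1 were higher. Ednrb (log2FC -0.33 ± 0.20, adjusted p = 0.16) did not pass on day 7. On day 21 (58.3% of all genes, 51.6% higher, 6.74% lower) and day 28 (59.6%, 55.4% higher, 4.19% lower), 5 of the 10 were called each, Ednrb and Plvap lower and Ackr1, Selp and Vwf higher. The day 28 values of Vwf (0.52) and Selp (0.97) stand against a shift of all genes of 0.36. With TMM factors neither was called on day 28. On day 35, 5 were called (71.3% of all genes, 69.5% higher, 1.74% lower), with Ednrb (log2FC -0.86 ± 0.19, adjusted p = 1.9e-04), Plvap (log2FC -0.64 ± 0.11, adjusted p = 1.7e-06), Apln and Car4 lower and Ackr1 higher. Without CTRL replicate 2 the count on day 35 was 3, without Apln and Car4. On day 42, 3 were called (18.6% of all genes, 16.6% higher, 1.94% lower), Ednrb (log2FC -0.78 ± 0.23, adjusted p = 0.012) and Plvap (log2FC -0.51 ± 0.12, adjusted p = 0.0022) lower and Ackr1 (log2FC 3.38 ± 0.77, adjusted p = 0.001) higher. Ednrb from day 14 and Plvap from day 21 thus fell by more than the pan-endothelial sum, whereas Cd93 was not called on any day on this scale.

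**Figure D3:**
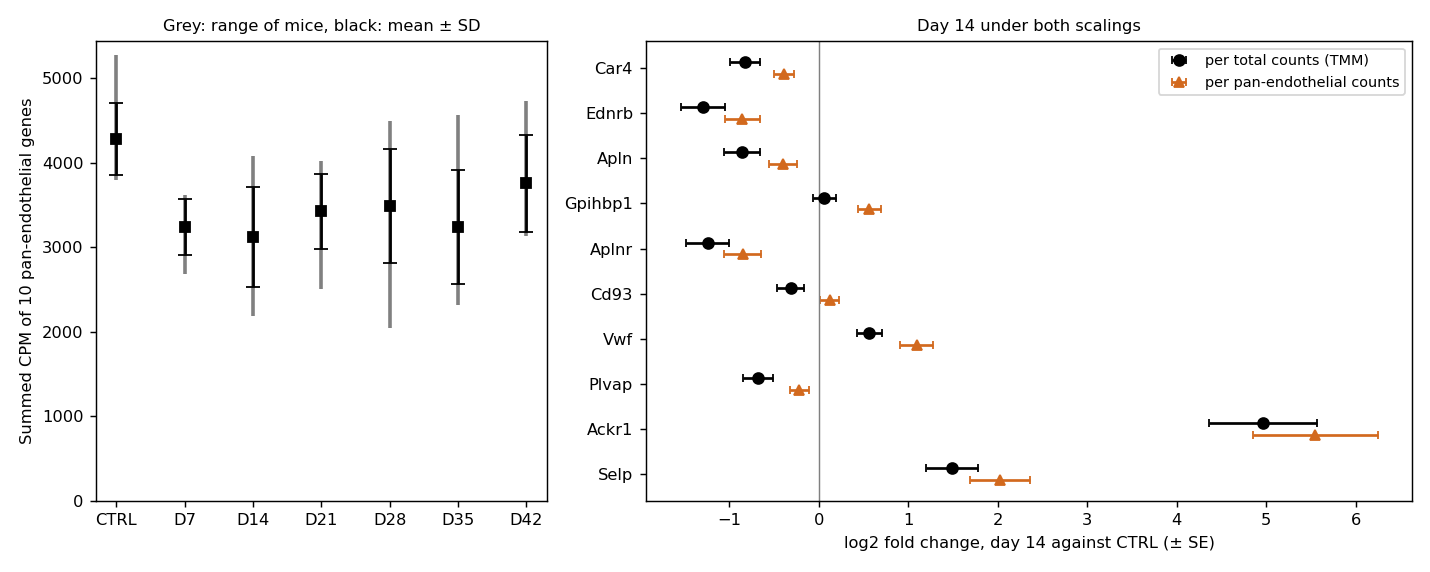
Left, summed level of 10 pan-endothelial genes (TMM-scaled CPM, y axis) by group, with squares and bars for mean ± SD and grey lines for the range of mice. Right, log2 fold change of each marker on day 14 against CTRL (± SE) per total counts and per pan-endothelial counts, in which every marker moves to the right and Ednrb, Aplnr, Apln and Car4 stay below 0.

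Other genes of the same vessel types were read from lists that were assembled with earlier results of these data known. Their counts, and those of all lists below, are to be read against the shares of all genes called higher and lower on each day, given above. Of 6 other aerocyte genes (Fibin, Tbx2, Kdr, Emp2, Chst1 and Rprml), 3, 6, 6, 4, 4 and 3 fell on the 6 days and the rest were not called. Their median log2FC was -0.71 on day 14, with Fibin, a secreted protein (log2FC -1.30 ± 0.20), and Rprml (log2FC -1.10 ± 0.31) as examples. Fibin was 94.1 ± 21 CPM in CTRL mice and 38.1 ± 11.7 CPM on day 14 (SD, n = 10 and 12). Of 6 other general capillary genes (Kit, Sema3c, Glp1r, Adgrl3, Plcb1 and Edn1), 4, 4, 2, 2, 2 and 1 fell. Their median moved from -0.58 on day 7 to 0.03 on day 42. Glp1r, the GLP-1 receptor, was 183 ± 12.2 CPM in CTRL mice and 81.3 ± 13.3 CPM on day 7 (log2FC -1.17 ± 0.22), and Sema3c, a secreted guidance factor, fell likewise (log2FC -0.75 ± 0.16).

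Of 6 other venous genes (Slc6a2, Nr2f2, Vcam1, Prss23, Bst1 and Sele), 3 rose on day 7, 3 on day 14 and 1 on each later day, and the others were not called. Among all genes tested, 24.8%, 32.4%, 28.3%, 24.1%, 16.9% and 13.7% were called higher on the 6 days. The 1 of 6 from day 21 onward is near or below these shares. Bst1, a surface enzyme shared with myeloid cells, was called on all 6 days (log2FC 0.63 ± 0.15 on day 7), and Sele, the endothelial selectin of inflamed vessels, on day 7 (log2FC 0.94 ± 0.27). Nr2f2, the transcription factor of venous identity, was not called, with log2FC from -0.11 to -0.03. The list's median was 0.39 on day 14 and -0.10 on day 42. Of 5 genes of systemic-like endothelium (Col15a1, Vwa1, Spry1, Ntrk2 and Sparcl1), 2, 4, 4, 4, 3 and 3 rose, and Spry1 fell on days 14 and 21. Col15a1, a basement membrane collagen that fibroblasts also make, was 17.4 ± 4.67 CPM in CTRL mice and 97.5 ± 29.4 CPM on day 14 (log2FC 2.48 ± 0.27). Ntrk2, a neurotrophin receptor, rose as well (log2FC 1.56 ± 0.37).

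**Figure D4:**
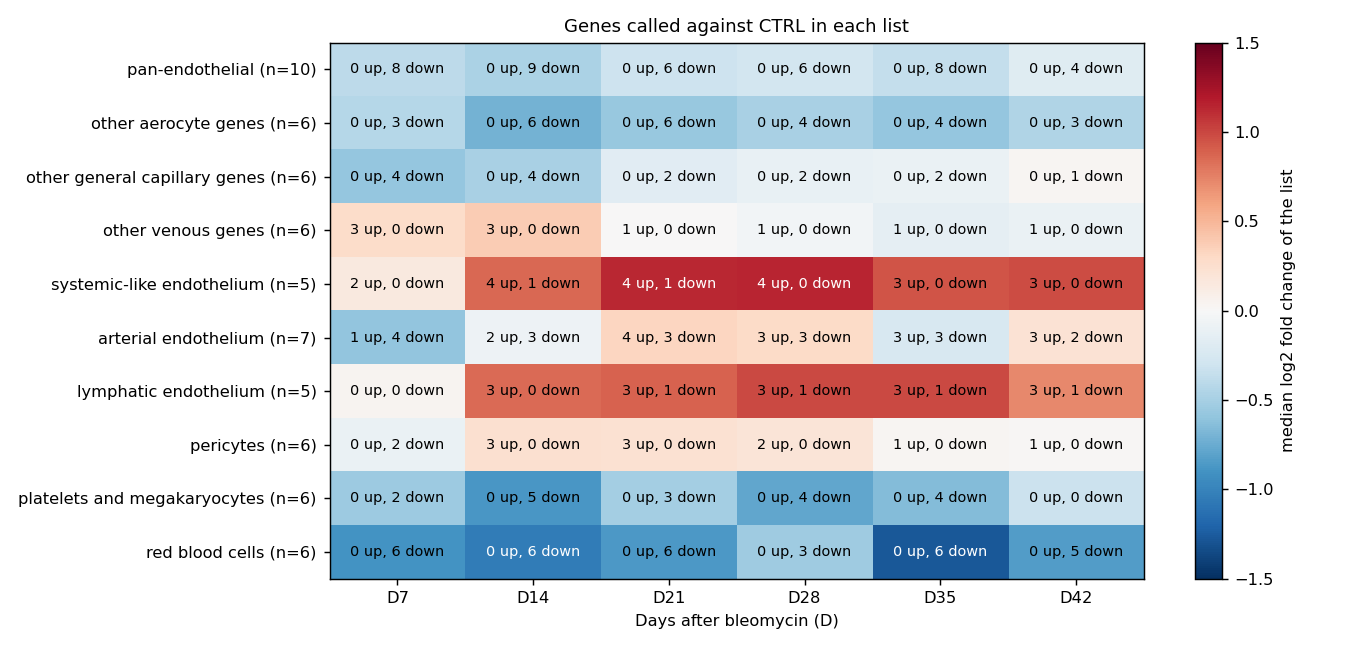
Number of genes called higher (up) or lower (down) against CTRL in each of 10 gene lists (rows, n = genes tested) by day (columns), with the color giving the list's median log2 fold change. Aerocyte genes stay blue on all days (6 of 6 down on days 14 and 21), whereas other venous genes show 3 up on days 7 and 14 and 1 up later.

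The pathways of the markers were read in the same way. Of the apelin pathway, the ligand Apln and the receptor Aplnr both fell on days 7, 14 and 21, and the second ligand, Apela, was not tested for low counts. Of 5 tested genes of the endothelin pathway (Edn1, Edn3, Ednra, Ednrb and Ece1), 3 fell on days 7 to 35 and 2 on day 42, and 1 rose on days 7 to 28. The gene that rose was Ednra, the receptor of smooth muscle and fibroblasts (log2FC 0.41 on day 14), whereas the ligand Edn3 (log2FC -0.89 ± 0.22 on day 7) and the converting enzyme Ece1 (-0.44 on day 14) fell together with Ednrb. Of 5 genes of capillary lipoprotein lipolysis (Lpl, Gpihbp1, Lmf1, Angptl4 and Cd36), 2 rose on days 7 to 21 and 1 later. Lpl, the lipase that Gpihbp1 carries, rose (log2FC 0.84 ± 0.22 on day 7), as did its inhibitor Angptl4 (log2FC 1.30 ± 0.23). Cd36, a fatty acid transporter of capillaries, fell on days 7, 14, 21 and 35 (-0.50 on day 14).

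Of 6 tested genes of leukocyte adhesion to vessels (Selp, Sele, Vcam1, Icam1, Icam2 and Selplg), 5, 4, 3, 1, 1 and 1 rose on the 6 days in turn. Icam2, which resting endothelium carries, fell on days 7 to 35 (-0.55 on day 14). Of 5 genes of Weibel-Palade bodies (Vwf, Selp, Angpt2, Cd63 and Rab27a), 2, 3, 3, 1, 2 and 2 rose, and Angpt2, a ligand of the Tek receptor stored in them, fell on days 7, 14 and 21 (-0.92 on day 7). Cd63 rose on all 6 days (log2FC 1.42 ± 0.15 on day 14), and is also a lysosomal protein of macrophages.

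Selp and Vwf are also made by platelets and their precursors, and Ackr1 by red blood cells, so markers of these cells were read beside them. Of 6 platelet and megakaryocyte genes given here (Pf4, Ppbp, Itga2b, Gp9, Gp1ba and Gp6), 2, 5, 3, 4, 4 and 0 fell on the 6 days and the others were not called. Their summed level ranged from 36.3 to 74.3 CPM in CTRL mice, from 29.1 to 69.7 CPM on day 7 and from 28.8 to 46.4 CPM on day 14, with no gene at 0. Ppbp, a platelet chemokine, was 18.3 ± 5.19 CPM in CTRL mice and 6.96 ± 4.76 CPM on day 14 (log2FC -1.39 ± 0.29), and Gp6, the platelet collagen receptor, fell too (log2FC -1.28 ± 0.31). Of 6 tested red blood cell genes (Hba-a1, Hba-a2, Hbb-bs, Hbb-bt, Alas2 and Slc4a1), 6, 6, 6, 3, 6 and 5 fell, among them near-identical globin copies whose reads may be shared. Their summed level ranged from 1097 to 2879 CPM in CTRL mice and from 225 to 1691 CPM on day 14, with no gene at 0. The levels of Selp, Vwf and Ackr1 rose on days 14 and 21, when 5 and 3 of the 6 platelet genes and 6 of the 6 red blood cell genes fell. The part of these cells in the levels of the markers was not tested.

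Genes of other lists were called on the same days. Of 6 cell cycle genes, 6 rose on days 7 to 35 and 3 on day 42, with a median log2FC of 2.40 on day 14. Ccnb1 (log2FC 2.59 ± 0.29) and Cdk1 (log2FC 2.28 ± 0.25), which drive entry into mitosis, are the examples of day 7. Of 6 AT2 genes, 5 fell on day 14 and 1 on day 7, with Slc34a2, a phosphate transporter (log2FC -0.91 ± 0.16), and Sftpc, a surfactant protein (log2FC -0.88 ± 0.18), as examples on day 14. Of 6 alveolar type 1 genes, 2 fell and 1 rose on each of days 7 to 28, with medians from -0.17 to 0.03. On day 7, Rtkn2 (log2FC -0.84 ± 0.18) was among the former and Pdpn (log2FC 0.67 ± 0.11) was the latter. Of 6 tested monocyte and neutrophil genes, 4 rose on day 14 (median 0.73), among them Cd14, the endotoxin co-receptor (log2FC 1.02 ± 0.13), and Ccr2, a chemokine receptor (log2FC 0.89 ± 0.16). Their part in the levels of the 10 markers was not tested.

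Within groups, some markers varied together from mouse to mouse. Deviations of log2 CPM from the group mean were compared in 75 mice for 5 pairs, with 2-sided permutation tests within groups and adjustment over the 5 pairs. For Apln and Aplnr, ligand and receptor, Pearson r was 0.649 and Spearman rho 0.654, for Car4 and Ednrb Pearson r was 0.662 and Spearman rho 0.723, and for Vwf and Selp Pearson r was 0.639 and Spearman rho 0.587. The 3 pairs each had an adjusted p of 1.25e-05 (the smallest unadjusted p that 100000 resamples can give is 1e-05) and positive r in 7 of 7 groups. For Plvap and Ackr1, Pearson r was -0.648 and Spearman rho -0.610, with the same adjusted p and negative r in 7 of 7 groups. In CTRL mice Ackr1 had only 0 to 4 counts each, so the CTRL r (-0.687) rests on values near the floor. CTRL replicate 2 had both the highest Plvap deviation and the lowest Ackr1 deviation of its group. For Gpihbp1 and Aplnr the relation did not pass (r -0.264, adjusted p = 0.067, rho -0.173, adjusted p = 0.16). Without the 2 mice farthest from the median of the first gene, r was 0.571 for Apln and Aplnr, 0.647 for Car4 and Ednrb, 0.583 for Vwf and Selp and -0.644 for Plvap and Ackr1. Within single groups r ranged from 0.260 to 0.969 for Apln and Aplnr and from 0.132 to 0.976 for Car4 and Ednrb. Both genes of a pair come from the same library, and so share its scaling and the cell mix of the lobe.

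**Figure D5:**
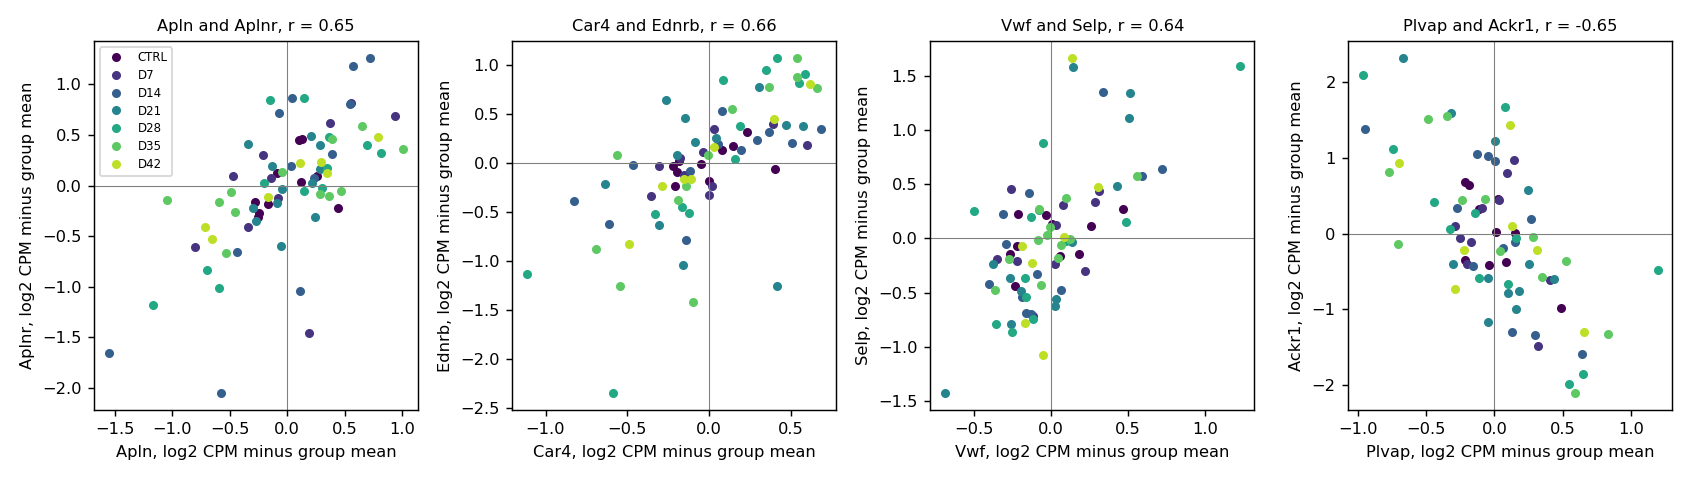
Deviation from the group mean (log2 CPM) of 2 markers per panel in 75 mice, with color for the group. Apln and Aplnr (r = 0.649), Car4 and Ednrb (r = 0.662) and Vwf and Selp (r = 0.639) rise together, whereas Ackr1 is lower in mice with more Plvap (r = -0.648).

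For the 6 markers with an absolute log2FC of at least 1 on some day, the 2 genes with the most similar course were found by the root mean square difference of log2FC over the 6 days (in parentheses). For Ednrb they were Slc38a4 (0.112) and Lmntd1 (0.118), for Apln Mettl24 (0.125) and Gad1-ps (0.137) and for Aplnr Gm5084 (0.101) and Gm13816 (0.134). For Plvap they were Wnt2 (0.0875) and Ramp2 (0.104), for Ackr1 Adamts4 (0.251) and Megf11 (0.273) and for Selp Dscc1 (0.157) and Mybl2 (0.185). The match was loosest for Ackr1 among these 6, whose log2FC also has the largest SE. Of the matched genes, Gad1-ps, Gm5084, Gm13816 and Dscc1 had low levels (mean log2 CPM 0.23, 0.08, 0.48 and 0.74). How close a match arises by chance among all genes tested was not examined.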

How the data were processed

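RNA-seq of the inferior lung lobe of 75 mice was used. The authors isolated RNA, prepared directional libraries (labelled polyA RNA), aligned the reads with STAR 2.7.0f to GRCm38 with the Ensembl 96 annotation and deposited raw whole-number read counts for each gene. The counting program and its handling of strand and multiply mapped reads are not given in the sources used here. Mice were grouped by their labels and counts tested with edgeR 4.0.16 (quasi-likelihood, TMM factors, filterByExpr, 7 group means) over 16221 genes. Contrasts were each BLEO-IPF day against CTRL, successive days and day 42 against day 14. The fit was repeated with each library scaled to its pan-endothelial counts. Errors of log2FC are standard errors of the fit, and SDs describe the spread between mice. Total counts were 9240291 to 14665247 per mouse.

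The members and lists were chosen with earlier results of these data known, and 1 gene of the platelet list is not reported here. All 10 members are named, and of each other list the 2 genes with the largest absolute log2FC among those called on the day with most calls, and others were named after their values were seen. Cadm3 and Gtpbp3 were named for overlap, and the motifs were chosen after the data were seen. Alternatives were DESeq2 1.42.0, library size scaling, upper quartile factors, no filter, at least 10 counts in every mouse, only the 2 groups compared, replicate number as a block and replicates 1 to 7 of each group. Log2 CPM used a prior count of 2. On simulated counts for day 14 against CTRL (16107 genes tested), 82 of 100 genes changed 2-fold and 76 of 99 changed 1.5-fold were called, with 15 unchanged genes. For day 42 against CTRL (16108 genes tested), these were 76 of 100 and 67 of 100, with 9 unchanged genes.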

Additional observations from a re-analysis of the deposited data

Results flagged for a closer look

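The level of 1 mouse stood apart from the others of its group in 3 of the 30 groups examined, by the gap to the nearest mouse relative to the range (Dixon's criterion, which flags about 1 in 20 groups by chance). These 30 were the 10 genes in each of the 3 groups of 4 to 10 mice (CTRL, day 7 and day 42). Days 14, 21, 28 and 35, with 12 mice each, were not examined in this way. Plvap was 779 CPM in CTRL replicate 2, against 614 CPM in the next mouse, and this mouse also had the highest pan-endothelial sum of CTRL (5275 CPM). Gpihbp1 was 144.7 CPM in day 42 replicate 4, against 110.8 CPM in the next mouse. Selp was 25.5 CPM in day 42 replicate 1, against 11.1 CPM in the next mouse.

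In contrasts of successive days and day 42 against day 14, the effect against CTRL differed for 5 members, by tests of the difference. Between day 14 and day 7, the difference was -0.52 (log2) for Car4 and 1.40 for Ackr1. Between day 42 and day 14, it was 0.82 for Aplnr, -0.53 for Vwf, -1.81 for Ackr1 and -0.82 for Selp. Contrasts of other pairs of days in the same fit called further members. Gpihbp1 was lower on day 35 than on days 7 and 14. Plvap was lower on day 35 than on day 7, and Apln was higher on days 28 and 42 than on day 7.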

How the results depend on the processing

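Of the counts of called members, those below moved by over 1.5 times. On day 28 the count was 3 in place of 5 with no filter on low counts and without CTRL replicate 2. Between day 42 and day 14 it was 2 in place of 4 when only the 2 groups were fitted. Between day 14 and day 7 it was 1 in place of 2 with at least 10 counts in every mouse, where Ackr1 is not tested, and with replicates 1 to 7 of each group, where fewer mice enter. Relative to pan-endothelial counts, the count on day 35 was 3 in place of 5 with no filter and without CTRL replicate 2. The other 127 and 58 counts stayed within 1.5 times.

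Of the members' log2FC values, 719 kept their direction and call, 15 gained a call, 15 lost one and 12, all uncalled and near 0, changed sign. Gpihbp1 was -0.13 on day 14 against CTRL and 0.0597 on day 42 against day 14 with replicates 1 to 7. Without 1 mouse, day 42 against CTRL ranged from -0.14 to 0.0092 for Gpihbp1 (the latter without CTRL replicate 2) and from -0.0024 (without day 42 replicate 1) to 0.0822 for Vwf, and day 42 against day 14 from -0.12 to 0.0027 (without CTRL replicate 2) for Plvap. Plvap on day 42 against day 14 was 0.0067 with DESeq2, 0.0304 with library size scaling, 0.0251 with upper quartile factors, 0.0086 with no filter, 0.0119 with at least 10 counts in every mouse, 0.0103 with only the 2 groups and 0.15 with replicates 1 to 7. Fits of only the 2 groups compared gained 7 calls, and left Ackr1 untested on days 7 and 42. Ednrb lost its call with replicates 1 to 7 on day 7 (adjusted p = 0.13) and day 42 (0.064). Other causes of these changes were not tested. The 3 refits that leave out a mouse were added after seeing the data.

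The deviations of same-numbered mice had a median correlation of -0.0056 over 147 pairs (range -0.54 to 0.48, with 44 pairs above 0.1). Differently numbered mice were not compared, so this check cannot exclude a pairing of mice for some replicate numbers. With the replicate block, the counts of called members on days 7 to 42 were 6, 8, 8, 5, 5 and 3, and no call of a member changed. Relative to pan-endothelial counts, 9 were called on day 14 and 6 on day 35 with the block.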

Other observations

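Arterial genes moved in both directions. Of 7 (Gja5, Gja4, Bmx, Hey1, Dkk2, Sox17 and Efnb2), 1, 2, 4, 3, 3 and 3 rose and 4, 3, 3, 3, 3 and 2 fell on the 6 days. Their summed level was 643 ± 38.2 CPM in CTRL mice (SD, n = 10), and the means of the BLEO-IPF groups lay between 458 CPM on day 7 and 585 CPM on day 42. The examples of day 21 are Dkk2, a secreted Wnt antagonist (log2FC 3.79 ± 0.55), and Gja4, a gap junction protein of arteries (log2FC 0.77 ± 0.14), which both rose. Bmx, Hey1 and Efnb2 fell on day 14 (-0.92, -0.96 and -0.86 in log2FC). Of 5 tested lymphatic genes, Prox1, Mmrn1 and Reln rose from day 14 to day 42 and Lyve1 fell from day 21. Prox1, the transcription factor of lymphatic identity, was 3.88 ± 0.589 CPM in CTRL mice and 12.8 ± 3.76 CPM on day 21 (log2FC 1.71 ± 0.22), and Lyve1, a hyaluronan receptor that macrophages also carry, was 446 ± 74.9 CPM in CTRL mice and 210.2 ± 70.5 CPM (log2FC -1.08 ± 0.24).

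Of 12 endothelial transcription factors, 8, 8, 7, 5, 8 and 3 fell on the 6 days. Foxf1 (log2FC -0.63 ± 0.15) and Tbx3 (log2FC -0.59 ± 0.12) are the examples of day 35, and Sox17 rose on days 21 to 42 (0.50 on day 42). Of 6 pericyte genes, 0, 3, 3, 2, 1 and 1 rose on the 6 days and 2 fell on day 7, with medians from -0.09 on day 7 to 0.24 on day 14. Rgs5 (log2FC 1.78 ± 0.40) and Cspg4 (log2FC 0.59 ± 0.15) rose on day 14.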
